A study of Mus musculus with 4 samples.

Results

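The RGS genes encode regulators of G protein signalling, and 10 of them were examined here in regenerating mouse liver: Rgs1, Rgs2, Rgs3, Rgs4, Rgs5, Rgs10, Rgs14, Rgs16, Rgs18 and Rgs19. Every probe set whose platform annotation named exactly 1 of these symbols was used, which gave 25 of the 45037 probe sets that were not controls and 10 of 18193 named genes. The symbols were matched through Entrez identifiers, because Rgs14 is also listed by RefSeq as an older name of Rgs16. The genes were chosen by family membership with earlier results of these arrays known, among them the signals of Rgs16 in sham and hepatectomy liver. Their differences between the groups, with the calls and adjusted p-values, are therefore given as a description and are not independent evidence. The study hybridised total RNA of mature liver from C57BL/6J mice to Affymetrix expression arrays, with 2 arrays for sham surgery and 2 for partial hepatectomy, all at 48 h. Partial hepatectomy removes part of the liver, and the remainder regrows. The design text calls the arrays of a group biological duplicates. The age of the mice, the extent of the resection and any pooling of RNA are not stated in what was available, so each p-value reflects only how much these 4 arrays vary, which may be technical.

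An RGS protein binds the active, GTP-bound alpha subunit of a heterotrimeric G protein and speeds the hydrolysis of its GTP, which ends the signal of the receptor upstream. The members act mainly on the Gi and Gq classes. The R4 subfamily holds small proteins with little beyond the RGS domain, such as Rgs1, Rgs2, Rgs4, Rgs5, Rgs16 and Rgs18, together with the longer Rgs3. Rgs10 and Rgs14 belong to the R12 subfamily and Rgs19 to the RZ subfamily. In liver, G proteins carry the signals of glucagon, adrenaline, vasopressin and chemokines, and Rgs16 is known in mouse liver for a transcript that follows feeding and the daily clock.

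A stretch upstream of the start site was available from RefSeq (build GRCm38.p6) for 7 of the 10 genes, at 10 start sites in all. Those of Rgs16 and Rgs2 are printed because these genes had the largest difference between the groups and the largest difference between the 2 hepatectomy arrays. Each shows the 250 bases before the start, 5′ to 3′ in the direction of the gene; capitals mark a CCAAT box (CCAAT) or a GC box (GGGCGG) on either strand. The Rgs16 stretch is chr1:153740103-153740352 on the plus strand and the Rgs2 stretch is chr1:144004150-144004399 on the minus strand.
Rgs16: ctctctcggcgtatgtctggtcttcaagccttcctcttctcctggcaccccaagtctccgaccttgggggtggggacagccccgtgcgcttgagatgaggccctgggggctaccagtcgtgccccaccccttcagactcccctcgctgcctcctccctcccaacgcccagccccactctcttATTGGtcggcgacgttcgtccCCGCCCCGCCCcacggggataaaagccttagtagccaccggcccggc
Rgs2: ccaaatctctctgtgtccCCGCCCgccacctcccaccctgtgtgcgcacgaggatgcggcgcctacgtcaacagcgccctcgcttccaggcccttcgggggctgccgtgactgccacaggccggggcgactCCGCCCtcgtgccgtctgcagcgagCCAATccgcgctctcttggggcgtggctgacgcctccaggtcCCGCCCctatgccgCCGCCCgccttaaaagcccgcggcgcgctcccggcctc
The Rgs16 stretch held 1 CCAAT box, beginning at position -68 from the start, and 2 GC boxes that share a base with each other. The Rgs2 stretch held 1 CCAAT box, beginning at position -94, and 4 GC boxes, and neither stretch had a CCAAT box overlapping a GC box. Of the 32851 stretches of this length in the RefSeq table, 33.8% held a CCAAT box and 32.7% a GC box. An E-box (CACGTG, in 6.02% of all stretches), a D-box (TTANGTAA, in 2.06%) and a cyclic AMP response element (TGACGTCA, in 1.55%) were also searched for on both strands, and their letters were in none of the 10 stretches of RGS genes. The letters of a TATA box (TATAAA, in 12.4% of all stretches) began at position -31 in the stretch of Rgs4. In the stretches of Rgs3 they began at -100 and -177. On the same RefSeq map Rgs2, Rgs13, Rgs1, Rgs21 and Rgs18 follow each other on chromosome 1 with 0 other protein-coding genes between them. Rgs5 and Rgs4 are neighbours on that chromosome, and so are Rgs8 and Rgs16.

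The deposited values were signals on a linear scale, 1 per probe set and array. The median of the absolute log2 difference over 27022 tested probe sets was 0.234 for the sham pair, 0.273 for the hepatectomy pair and 0.299 to 0.344 for arrays of different groups. Hepatectomy replicate 1 stood apart in markers of other tissues. All 5 adrenal medulla markers and 7 of 9 adrenal cortex markers were more than 3 times as high there as on any other array. So were 3 of 5 fat cell markers. The other 2 cortex markers, Nr5a1 and Fdx1, were lower on both hepatectomy arrays than on both sham arrays. Nr5a1 stood at 36.8 and 31.7 in sham against 18.2 and 20.6. Fdx1 stood at 7171 and 5187 against 3237 and 3850. The summed medulla markers stood at 67.8 and 105 in sham against 4057 (replicate 1) and 37.7 (replicate 2) after hepatectomy. The cortex markers other than Fdx1, which was bright on all 4 arrays, summed to 245 and 213 in sham against 19650.3 and 231. With Fdx1 the sums were 7416 and 5400 against 22887 and 4081. The summed neutrophil and monocyte markers were higher on both hepatectomy arrays, at 530 and 465 in sham against 10265 and 3645. Most of these sums came from S100a8 and S100a9, at 4173 and 5649 in replicate 1 and 1204 and 2316 in replicate 2. In replicate 1, 6 of 7 markers had their highest signal, 2 of them more than 3 times as high as on any other array. On all 4 arrays 2 of the 7 lay under 20.4, the highest signal of the bacterial controls. Hepatocyte markers did not separate the groups, with sums of 81058 and 69718 in sham and 72759 and 69705 after hepatectomy. The values of the tested RGS genes without hepatectomy replicate 1 are given beside those of all 4 arrays. A fit without 1 array has 1 residual degree of freedom, so its spread comes from the pair of arrays in the other group and from all probe sets together, and the lone array is assumed to vary in the same way. The arrays measured RNA of whole liver, in which fewer cells of a type and less RNA per cell cannot be told apart.

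Of the 25 RGS probe sets, 17 had a mean log2 signal of at least 5.09, the 40th percentile of all probe sets, and were tested. They stood for 8 of the 10 genes, and Rgs14 and Rgs18 had no probe set above that level. Of the 8 genes 1 fell after hepatectomy and 0 rose, by limma at an adjusted p of 0.05, each gene standing by its tested probe set with the highest mean. Of all 12560 genes tested, 1.09% were called lower and 3.57% higher at that adjusted p. At an unadjusted p under 0.05 by limma the RGS counts were also 1 and 0, against 7.47% lower and 12.5% higher of all genes tested. Signals of both hepatectomy arrays lay under both sham arrays for 3 of the 8 genes (Rgs3, Rgs10 and Rgs16), as they did for 23.2% of all genes tested. They lay above both sham arrays for 2 (Rgs1 and Rgs19), as for 28.1% of all genes tested, and the groups overlapped for Rgs2, Rgs4 and Rgs5. The median log2 fold change of the 8 genes was 0.15, against 0.02 over all genes tested. Without hepatectomy replicate 1 the counts were again 1 lower and 0 higher.

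**Figure D1:**
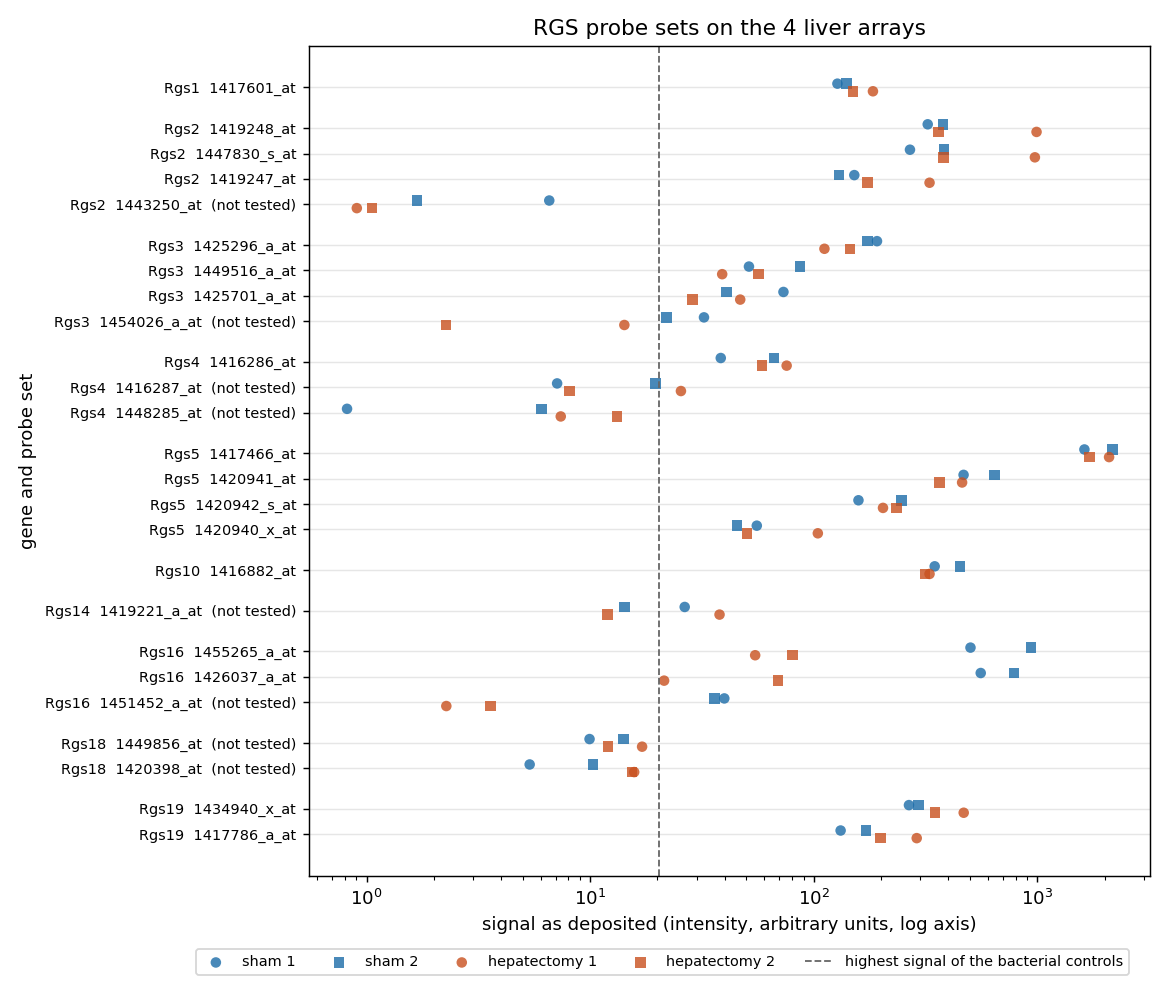
Deposited signal (log axis) of the 25 RGS probe sets on each of the 4 arrays, grouped by gene, with the highest signal of the bacterial control probe sets (20.4) as a dashed line. In all 3 Rgs16 probe sets both hepatectomy arrays lie left of both sham arrays, and in 3 Rgs2 probe sets hepatectomy replicate 1 lies to the right of the other 3 arrays; levels of different probe sets are not comparable.

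Rgs16 was the gene that fell. It acts on Gi and Gq alpha subunits. Its probe set 1455265_a_at had signals of 502 and 937 in sham and 54.7 and 80.2 after hepatectomy. Both hepatectomy arrays were low, and the groups were far from overlapping although the sham arrays differed from each other. The means were 719 ± 307 in sham and 67.5 ± 18.1 after hepatectomy (SD, n = 2 arrays per group), and the log2 fold change was -3.21 ± 0.35 (SE; adjusted p = 0.00287 by limma). Its 95% interval ran from -4.02 to -2.41, which is 5.31-fold to 16.2-fold lower on the log2(signal + offset) scale.

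The other Rgs16 probe sets lay in the same order. Probe set 1426037_a_at had signals of 558 and 787 in sham and 21.4 and 69.2 after hepatectomy, and its log2 fold change was -3.80 ± 0.44 (SE; adjusted p = 0.00366 by limma). The hepatectomy arrays differed from each other by 1.37 on the log2 scale in that probe set, a gap that only 3.19% of all tested probe sets exceeded, and both still lay far under the sham arrays. Probe set 1451452_a_at was too dim to be tested, with signals of 39.8 and 36.1 in sham and 2.27 and 3.59 after hepatectomy. Both of its hepatectomy signals lay under 20.4, the highest signal of 27 bacterial control probe sets, so the signal was at least 1.86-fold lower. Without hepatectomy replicate 1 the log2 fold change of Rgs16 was -2.98 ± 0.35 (SE; adjusted p = 0.000276 by limma). With each of the 4 arrays left out in turn it lay between -3.66 and -2.76, and each of these fits, with 1 array in a group, called it lower. Rgs8, the chromosomal neighbour of Rgs16, lay under the bacterial control level on all 4 arrays, at 11.5 and 8.12 in sham and 6.23 and 13.5 after hepatectomy.

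Rgs2, which acts chiefly on Gq and limits vasoconstrictor signals, differed more between the hepatectomy arrays than between the groups. Probe set 1419248_at had signals of 323 and 378 in sham, 991 in hepatectomy replicate 1 and 361 in replicate 2. Only replicate 1 was high, and replicate 2 lay between the sham arrays. Probe set 1447830_s_at gave 269 and 383 in sham against 975 and 381, and probe set 1419247_at gave 152 and 130 against 329 and 174. In each of the 3, replicate 1 was the high array, and in 1419247_at replicate 2 was also above both sham arrays. Their log2 fold changes were 0.76 ± 0.41, 0.91 ± 0.41 and 0.74 ± 0.34 (SE), and none passed (adjusted p = 0.417, 0.322 and 0.328 by limma). The 95% interval of the first ran from -0.19 to 1.72. For the first of these the gap between the hepatectomy arrays was 1.43 on the log2 scale, and 2.84% of tested probe sets had a larger one. Without hepatectomy replicate 1 the log2 fold change of Rgs2 was 0.05 ± 0.27 (adjusted p = 0.966 by limma), and without replicate 2 it was 1.48 ± 0.25 (adjusted p = 0.00321 by limma). The last value sets replicate 1 alone against the sham arrays, with the spread taken from the sham pair. Replicate 1 was also the array with high adrenal and fat markers, whose sums stood at 46.9 (medulla), 85.8 (cortex without Fdx1; 3.57 with it) and 5.23 (fat) times the sham mean. In replicate 2 they stood at 0.436, 1.01 (0.637 with Fdx1) and 2.25 times. Fabp4 was the brightest fat marker, and the other 4 summed to 150 and 66.7 in sham against 2287 and 277 after hepatectomy. The summed neutrophil and monocyte markers, mostly S100a8 and S100a9, stood at 20.6 times the sham mean in replicate 1 and 7.33 times in replicate 2. Among them Ccr2, with signals of 61.2 and 70.2 in sham against 303 and 70.5, and Csf3r, with 34.6 and 33.9 against 77.4 and 27.8, were high in replicate 1 alone. The part of these cells and tissues in the Rgs2 signal was not tested. The fourth Rgs2 probe set, 1443250_at, lay under the bacterial control level on all 4 arrays.

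**Figure D2:**
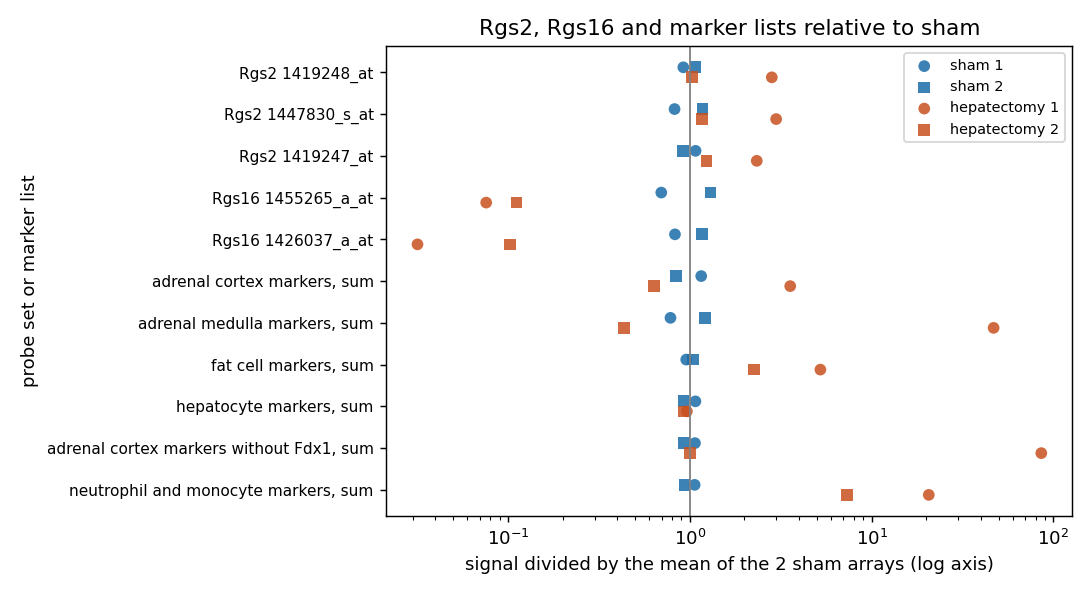
Signal of the tested Rgs2 and Rgs16 probe sets and of summed marker lists (adrenal cortex with and without Fdx1) on each array, divided by the mean of the 2 sham arrays (log axis). Rgs2 is 2.34 to 2.99 times the sham mean in hepatectomy replicate 1 and 1.03 to 1.24 times in replicate 2, while Rgs16 is at most 0.112 times in both and hepatocyte markers stay close to 1.

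Rgs5, a gene of pericytes and vascular smooth muscle, did not separate the groups in its brightest probe set. Probe set 1417466_at had signals of 1623 and 2161 in sham and 2092 and 1709 after hepatectomy. The ranges overlapped, the log2 fold change was 0.01 ± 0.19 (SE) and its 95% interval ran from -0.43 to 0.46 (adjusted p = 0.984 by limma). The value was -0.13 without hepatectomy replicate 1. The 4 Rgs5 probe sets did not lie in one direction. Probe set 1420941_at was lower on both hepatectomy arrays, at 461 and 366 against 468 and 644 in sham (log2 fold change -0.41 ± 0.24, SE), and the other two had values of 0.14 and 0.47. Summed markers of stellate cells and pericytes stood at 13542 and 16818 in sham and 10689 and 11403 after hepatectomy. On both hepatectomy arrays 5 of 15 markers were lower and 4 higher, against 23.2% and 28.1% of all genes tested. The part of these cells in the Rgs5 signal was not tested. Smooth muscle markers summed to 755 and 960 in sham and 2441 and 2356 after hepatectomy. Most of these sums came from Acta2 (290 and 403 against 1084 and 1036) and Tagln (350 and 420 against 1188 and 1008). Myh11 stood at 95.2 and 85.5 against 121 and 161. Of the 5 smooth muscle markers, 1 lay under the bacterial control level on every array.

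Rgs3, an R4 member with several isoforms, had negative values in all 4 of its probe sets, and none was called. Probe set 1425296_a_at had signals of 192 and 174 in sham and 112 and 145 after hepatectomy, with no overlap. Its log2 fold change was -0.49 ± 0.28 (SE; adjusted p = 0.436 by limma), with a 95% interval from -1.13 to 0.15. The value was -0.32 without hepatectomy replicate 1. In the other tested probe sets, 1449516_a_at and 1425701_a_at, the groups overlapped, with log2 fold changes of -0.44 and -0.48. The dim probe set 1454026_a_at had 32.3 and 21.9 in sham and 14.2 and 2.27 after hepatectomy.

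Rgs4, which restrains Gi and Gq signals in heart and brain, was dim. Probe set 1416286_at had signals of 38.4 and 66.2 in sham and 75.6 and 58.7 after hepatectomy, so the groups overlapped (log2 fold change 0.34 ± 0.38, SE; adjusted p = 0.726 by limma). Its 95% interval ran from -0.53 to 1.22. The value was 0.18 without hepatectomy replicate 1. Leaving out sham replicate 1 gave 0.0082, and leaving out sham replicate 2 gave 0.67. The other two Rgs4 probe sets were not tested, and 1 of them lay under the bacterial control level on every array.

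Rgs1, which dampens chemokine receptor signals in lymphocytes, had signals of 128 and 140 in sham and 184 and 150 after hepatectomy. The groups did not overlap but lay close together, at 0.30 ± 0.27 on the log2 scale (SE; adjusted p = 0.669 by limma), with a 95% interval from -0.34 to 0.93. The value was 0.15 without hepatectomy replicate 1. Summed lymphocyte markers were lower after hepatectomy. On both hepatectomy arrays 4 of 8 T and NK cell markers and 4 of 5 B cell markers were lower. For comparison, 23.2% of all genes tested were lower on both. Those of T and NK cells summed to 565 and 439 in sham and 287 and 276 after hepatectomy. Those of B cells summed to 338 and 297 against 152 and 137. The NK cell receptor gene Ncr1 was higher on both hepatectomy arrays, at 37.4 and 16.1 against 10.8 and 10.5 in sham. Only its signal of 37.4 lay above the bacterial control level. Rgs18, known from platelets and their precursors, lay under the bacterial control level in both of its probe sets on all 4 arrays, with signals from 5.36 to 17.1. Platelet markers summed to 342 and 420 in sham and 566 and 526 after hepatectomy. The chemokine gene Pf4 alone stood at 178 and 262 against 413 and 370, and the other 6 markers together at 165 and 158 against 153 and 156.

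In the R12 subfamily, Rgs10 acts on Gi subunits and is abundant in macrophages and microglia. It had signals of 347 and 452 in sham and 329 and 315 after hepatectomy. Both hepatectomy arrays were lower, the nearest by less than the distance between the sham arrays, and the log2 fold change was -0.29 ± 0.23 (SE; adjusted p = 0.606 by limma; 95% interval from -0.83 to 0.25). The value was -0.33 without hepatectomy replicate 1. Leaving out sham replicate 1 gave -0.48, and leaving out sham replicate 2 gave -0.11. Markers of macrophages and Kupffer cells summed to 21326 and 23558 in sham and 24247 and 24531 after hepatectomy. On both hepatectomy arrays 4 of 10 markers were higher and 4 lower, against 28.1% and 23.2% of all genes tested. Rgs14, which carries a GoLoco motif for inactive Gi subunits besides its RGS domain, was too dim to be tested. Its signals were 26.5 and 14.2 in sham and 37.9 and 11.9 after hepatectomy, with 1 array of each group under the bacterial control level.

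Rgs19 of the RZ subfamily, also called GAIP, acts on Gi subunits and carries a string of cysteines. Probe set 1434940_x_at had signals of 266 and 295 in sham and 468 and 349 after hepatectomy, and probe set 1417786_a_at had 132 and 171 against 289 and 198. Both hepatectomy arrays were above both sham arrays in each probe set, with replicate 1 the higher one. The log2 fold changes were 0.52 ± 0.24 and 0.64 ± 0.29 (SE), and neither passed (adjusted p = 0.342 and 0.327 by limma). Their 95% intervals ran from -0.04 to 1.08 and from -0.03 to 1.32. The first value was 0.31 ± 0.28 without hepatectomy replicate 1. Probe sets with the suffix _x_at or _s_at may match more than 1 transcript, which concerns 1 of the probe sets of Rgs19, 1 of Rgs2 and 2 of Rgs5.

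**Figure D3:**
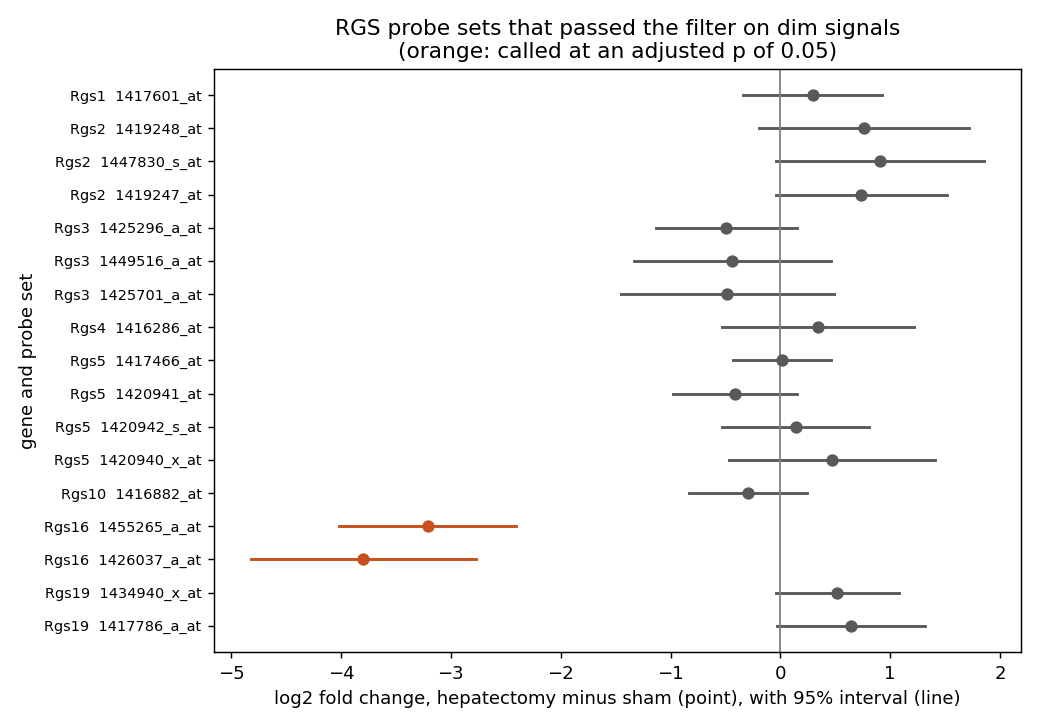
Log2 fold change (hepatectomy minus sham, on the log2(signal + offset) scale) of the 17 tested RGS probe sets, with lines for the 95% interval of the fit. The 2 Rgs16 probe sets, at -3.21 and -3.80, lie apart from the other 15, whose intervals all include 0.

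The rest of the RGS family was mostly too dim to compare. Of 11 other RGS genes 9 had probe sets, 17 in number, and 11 of these probe sets lay under the bacterial control level on all 4 arrays. The 2 genes that could be tested, Rgs12 (0.48 ± 0.39, SE of the log2 fold change) and Rgs9 (0.17 ± 0.39), did not pass (adjusted p = 0.614 and 0.881 by limma). Other proteins with an RGS domain and RGS partners, such as axins and receptor kinases, had 20 tested genes. Of these 0 were called in either direction by limma, against 1.09% lower and 3.57% higher of all genes tested. At an unadjusted p under 0.05 the count was also 0, against 7.47% lower and 12.5% higher of all genes tested. The median log2 fold change of the 20 was -0.002.

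The G protein genes that RGS proteins act on or beside were counted in the same fit. In it 1.09% of all genes were called lower and 3.57% higher. At an unadjusted p under 0.05 by limma, 4 of 12 alpha subunits were higher and 1 lower. The shares of all genes tested were 12.5% and 7.47%. The Gi subunits Gnai1, Gnai2 and Gnai3 had log2 fold changes of 0.88 ± 0.23, 0.45 ± 0.16 and -0.04 ± 0.15 (SE), and none was called. Of 12 tested alpha subunits 1 rose, Gnat1, which encodes rod transducin, with signals of 225 and 335 in sham and 965 and 1221 after hepatectomy (log2 fold change 1.95 ± 0.25, SE; adjusted p = 0.00622 by limma). Of 13 tested beta and gamma subunits 1 rose, Gng13, a gamma subunit of taste and retina, with 20.9 and 16.9 against 117 and 89.1 (log2 fold change 2.01 ± 0.36, SE, with 1 sham signal under the bacterial control level; adjusted p = 0.0252 by limma). Of 14 tested adenylyl cyclases and Gq effectors 1 fell, Adcy9, with 1113 and 920 against 542 and 488 (log2 fold change -0.96 ± 0.20, SE; adjusted p = 0.0408 by limma). Gng13 lost its call without hepatectomy replicate 1 (adjusted p = 0.0523 by limma), without sham replicate 1 (0.116) and without sham replicate 2 (0.128). Adcy9 lost it without sham replicate 1 (0.369) and without sham replicate 2 (0.137). Of 17 tested liver receptors that couple to G proteins 0 were called by limma, while 5 higher and 1 lower had an unadjusted p under 0.05, as had 12.5% (higher) and 7.47% (lower) of all genes tested. With hepatectomy replicate 2 alone against sham, the vasopressin receptor Avpr1a and the sphingosine phosphate receptor S1pr3 had log2 fold changes of 1.06 and 1.48. With replicate 1 alone, the chemokine receptors Cxcr4 and Ccr2 had 1.76 and 2.06, and the prostaglandin receptor Ptger4 had 1.35. On replicate 2, Cxcr4 (83.6 against 110 and 113 in sham) and Ptger4 (169 against 243 and 209) lay under both sham arrays. On replicate 1, Avpr1a (1799 against 997 and 1277 in sham) and S1pr3 (442 against 148 and 261) also lay above both sham arrays. These 5 receptors, 2 and 3 in number, and the remaining called feeding and clock genes were singled out with their values known. The receptors had a median log2 fold change of 0.42, against 0.02 over all genes tested.

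Genes of feeding and of the clock, 2 settings in which Rgs16 is known to change, were counted beside it. The sample titles give neither the feeding state nor the time of day. A link of these genes to Rgs16 was not tested. Of 18 tested feeding genes 5 fell (Acacb, Mlxipl, Pklr, Srebf1 and Thrsp) and 2 rose (Fgf21 and Pdk4), with a median log2 fold change of -0.35, where 1.09% of all genes were called lower and 3.57% higher. Without sham replicate 1 the count called lower was 1 (0.166% of all genes), and without sham replicate 2 it was 3 (0.373%). Srebf1, a transcription factor of fat synthesis, stood at -1.40 ± 0.20 on the log2 scale (SE; adjusted p = 0.00868 by limma, 0.0578 without sham replicate 2), and Pklr, the liver pyruvate kinase, had -1.12 ± 0.16 (adjusted p = 0.0111 by limma, 0.0778 without sham replicate 1). Pdk4, a kinase that restrains pyruvate use, rose by 2.17 ± 0.27 (adjusted p = 0.00537 by limma). Fgf21 had sham signals of 16.7 and 6.77, both under the bacterial control level, against 374 and 115 after hepatectomy. Its signal was thus at least 10.2-fold higher. Of 18 tested clock genes 4 fell (Ciart, Dbp, Per3 and Usp2) and 1 rose (Nfil3), with a median of -0.66. Dbp, a clock output factor, stood at -1.30 ± 0.20 on the log2 scale (adjusted p = 0.0143 by limma). Per3 stood at -1.01 ± 0.18 and Nfil3 at 1.06 ± 0.22 (adjusted p = 0.0248 and 0.0437 by limma), and Nfil3 also lost its call without hepatectomy replicate 1 (0.0726). Without sham replicate 1 or without sham replicate 2, 0 clock genes were called, with an adjusted p of 0.0577 and 0.0901 for Dbp, and without hepatectomy replicate 2, 8 of 17 were called lower and 2 higher, against 3.27% and 6.71% of all genes.

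The 5 genes whose 4 log2 values, each taken from its own mean, lay nearest to those of Rgs16 were Pde6c, Slc13a2, Lpin1, Ces2b and Ugt2b38. Their root mean square difference from Rgs16 over the 4 arrays was 0.355, 0.438, 0.455, 0.470 and 0.483 on the log2 scale. Pde6c, a cone phosphodiesterase, was the nearest, with signals of 111 and 166 in sham and 7.29 and 24.0 after hepatectomy. The signal of 7.29, and 1 of Slc13a2 at 16.5, lay under the bacterial control level, so the order of these genes rests in part on signals not above background. In all of them but Ces2b the hepatectomy array with the lower signal was replicate 1, as it was for Rgs16. Lpin1, a phosphatidate phosphatase, had signals of 6134 and 5359 against 735 and 1013. All 5 were called lower, and Lpin1 kept the call with each array left out. The call was lost without sham replicate 1 for Pde6c (adjusted p = 0.096 by limma) and Slc13a2 (0.0504), and without sham replicate 2 for Pde6c (0.157), Ces2b (0.136) and Ugt2b38 (0.0969). Likeness was measured on the arrays that chose Rgs16 and is a description.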

How the data were processed

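The authors deposited 1 intensity per probe set and array on a linear scale, and the submitters' processing notes name GCOS 1.4. Its settings and detection calls are not stated in what was available. The mean signal after trimming 2% at each end was 500.0 on each of the 4 arrays, so the values had been scaled, and this scaling was kept. After 64 control probe sets were left out, 34945 of the other 45037 had 1 gene symbol in the platform annotation, 932 carried more than 1, and 9160 carried none.

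The analysis used log2(signal + 8.58), where the offset is the 20th percentile of the signals, which understates the fold changes of dim probe sets. Probe sets with a mean log2 signal under the 40th percentile were left out. The groups were compared two-sided in R 4.3.3 by limma 3.58.1 (lmFit, then eBayes allowing a mean-variance trend), with Benjamini-Hochberg adjustment over all 27022 tested probe sets. Residual degrees of freedom were 2, with 6.02 from the prior, and the number of arrays limits its precision. Intervals are at 95%. The bacterial control level served as a floor for dim signals and was chosen after the data were seen. The code was tested on simulated data.

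The RGS genes, gene lists, marker lists and tests were chosen with earlier results of these data known. All RGS genes were named, with up to 3 called genes per list and the 5 genes nearest to Rgs16 by root mean square difference. The CCAAT and GC box were added after the sequences were seen. Alternatives were 2 other offsets, no filter and a stricter one, 2 other scalings, no trend, robust eBayes, other choices of probe set, a replicate block and leaving out each array.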

Additional observations from a re-analysis of the deposited data

How the results depend on the processing

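Rgs16 kept its call as lower under all 15 alternatives, with log2 fold changes from -3.66 to -2.76 and adjusted p from 8.23e-07 to 0.044 by limma. The highest adjusted p came without the mean-variance trend (0.044) and without the filter (0.0257). The count of RGS genes called lower was 1 under every alternative, and 1 when each array was left out. The count called higher was 0 under all alternatives except without hepatectomy replicate 2, where it was 1 (Rgs2). It was therefore 0 to 1 when arrays were left out. Rgs5, which was not called, changed sign to -0.073 with median centring, to -0.19 without sham replicate 1 and to -0.13 without hepatectomy replicate 1, and ranged from -0.19 to 0.22 with arrays left out. The other RGS genes tested (Rgs1, Rgs3, Rgs4, Rgs10 and Rgs19) kept their direction and stayed uncalled under the alternatives (13 for Rgs4, 15 for each of the others). Rgs14 and Rgs18, tested only without the filter, had adjusted p of 0.966 and 0.926 by limma. The cause of these changes was not tested.

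With the replicate number of the titles as a replicate block, the RGS counts were 1 lower and 0 higher, and Rgs16 had an adjusted p = 8.23e-07 by limma. The labels do not say that the numbers pair arrays, and the deviations of same-numbered arrays correlated at 0.10 across 27022 probe sets. Over all genes the block moved the calls from 137 lower and 449 higher to 342 and 847. Under the other alternatives the share of all genes called lower ran from 0.0717% (no trend) to 3.27% (without hepatectomy replicate 2), and the share called higher from 1.07% (no filter) to 6.71%. With median centring the typical gene stood at -0.06 on the log2 scale (median), against 0.02. Rgs14 and Rgs18 had signals near or under the bacterial control level, which limits what their values can show. Fits without 1 array compare a single array with a pair. Leaving out arrays for the lists outside the RGS family was added after the data were seen.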
